A study of Gasterosteus aculeatus with 227 samples.

Results

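Homeobox genes encode transcription factors that bind DNA through a helix-turn-helix domain and give cells a regional or cell type identity. The genes described here were chosen by name from the count tables of the threespine stickleback (Gasterosteus aculeatus), as all rows of the Hox, Dlx, Emx, Otx, Pax, Lhx, Nkx, Irx, Pou, Meis, Pbx, Barhl, En, Gbx, Vax and Isl families and the sine oculis family, whose genes are named six2a to six9. The rule took 131 of 25994 listed genes. All are called homeobox genes here by name alone, the Pax genes pax1a and pax9 included. Whether each protein has this domain was not checked, so the term is a label for the list and not a statement about each gene. The largest families were Hox with 36 genes, Pou with 16, Nkx with 15, Pax with 12 and Irx with 10. All fish were wild and untreated, caught in the breeding season from a single natural population, and sex was the variable of interest. Transcript ends were sequenced from brain, gills and liver, with 39 female and 39 male brain libraries, 36 female and 36 male gill libraries and 38 female and 39 male liver libraries from 80 fish. No allele or agent distinguished the groups, and the age of the fish is not given in the sources used here.

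In vertebrate embryos Hox genes are read in nested domains along the hindbrain, spinal cord and trunk, in the order of their paralog groups. Otx, Emx, six3a, Vax and Nkx2.1 genes mark the forebrain and its hypothalamus, En, Pax2 and Gbx genes the midbrain and anterior hindbrain, and Pax1, Pax9, Dlx, Nkx2.3 and group 3 Hox genes the pharyngeal arches from which gills form. Many of these genes keep a regional pattern in adult tissue. Meis and Pbx proteins are cofactors that bind DNA together with Hox proteins and are made in many cell types.

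Levels are given as CPM, counts scaled to 1000000 counts in genes, which with transcript-end libraries needs no correction for gene length. Values rest on the 216 libraries of at least 1000000 counts, of which 38 female and 39 male came from brain, 36 and 36 from gills, and 35 and 32 from liver. Brain totals ran from 8464756 to 17558655 counts, gill totals from 6599953 to 28095335 and liver totals from 4351992 to 27770413. The summed level of 13 neuron and glia genes had medians of 9071 CPM in female brains and 8440 CPM in male brains, and at most 475 CPM in gills and 179 CPM in livers. The hepatocyte markers were less separate. Their 10 genes summed to medians of 2989 CPM in female brains and 2496 CPM in male brains (up to 7039 CPM), 43.9 and 83.9 CPM in female and male gills, and 10580 and 41222 CPM in female and male livers (at least 4282 CPM), so that brains and livers overlapped. Some libraries stood apart from others with the same label. The 526 Y-linked genes summed to 1554 CPM in male brain 12 and 1330 CPM in male gills 11, which are from the same fish, against at least 5663 and 4448 CPM in the other male brains and gills. In male livers 32 and 35 these genes summed to 1576 and 890 CPM, against a median of 4024 CPM over male livers, and in female livers 17 and 23 to 384 and 353 CPM, within the range of the female livers (139 to 530 CPM). Male livers 32 and 35 had 5395 and 11575 CPM of vtg3, a yolk protein precursor made by the liver of breeding females, and female livers 17 and 23 had 40.4 and 15.2 CPM. Of the 20 sex differences called below, 19 were also called without these libraries, and that of lhx8a in gills was not. In whole tissue, fewer cells of a type and less RNA per cell cannot be told apart.

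At least 1 read was counted for 114 of the 131 genes. The other 17 were at 0 in all 227 libraries. These were barhl1b, dlx1a, dlx4b, dlx6a, emx1, en2a, nkx6.1, pax6b, pou4f1 and 8 Hox genes, namely hoxa5a, hoxb4a, hoxc4a, hoxc5a, hoxc6a, hoxc8a, hoxc9a and hoxd4a. All 3 listed group 4 Hox genes, the single listed group 8 gene and the only listed En gene, en2a, were among them. The share of genes without a read, 13.0%, was close to the 12.5% of all listed genes. Of the 16 such genes with a position in a gene table, 9 overlapped another annotated gene, against 16 of the 105 positioned homeobox genes with reads. Reads that overlap several genes were not assigned to a gene in these tables, and the part of overlap in the zeros was not tested. A count of 0 allows up to 3 counts, which in a library of median size is 0.246 CPM in brain, 0.268 CPM in gills and 0.277 CPM in liver.

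Brain had the most homeobox transcript, gills somewhat less, and liver little. Summed over all 131 genes, brains ran from 1410 to 3186 CPM with a median of 2284 CPM. Gills ran from 871 to 2334 CPM with a median of 1576 CPM, and livers from 24.9 to 462 CPM with a median of 151 CPM, so that brains and gills overlapped while no liver reached the lowest gill library. These sums rest on library totals. With TMM-scaled library sizes brains ran from 1035 to 1967 CPM, gills from 781 to 1488 CPM and livers from 129 to 736 CPM, and again no liver reached the lowest gill library. A median of at least 1 CPM was found for 75 of the 131 genes in brain (57.3%, against 67.1% of all listed genes), 63 in gills (48.1%, against 64.6%) and 19 in liver (14.5%, against 46.7%). A median of at least 10 CPM was reached by 35 of them in brain, by 21 in gills and by 3 in liver.

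**Figure D1:**
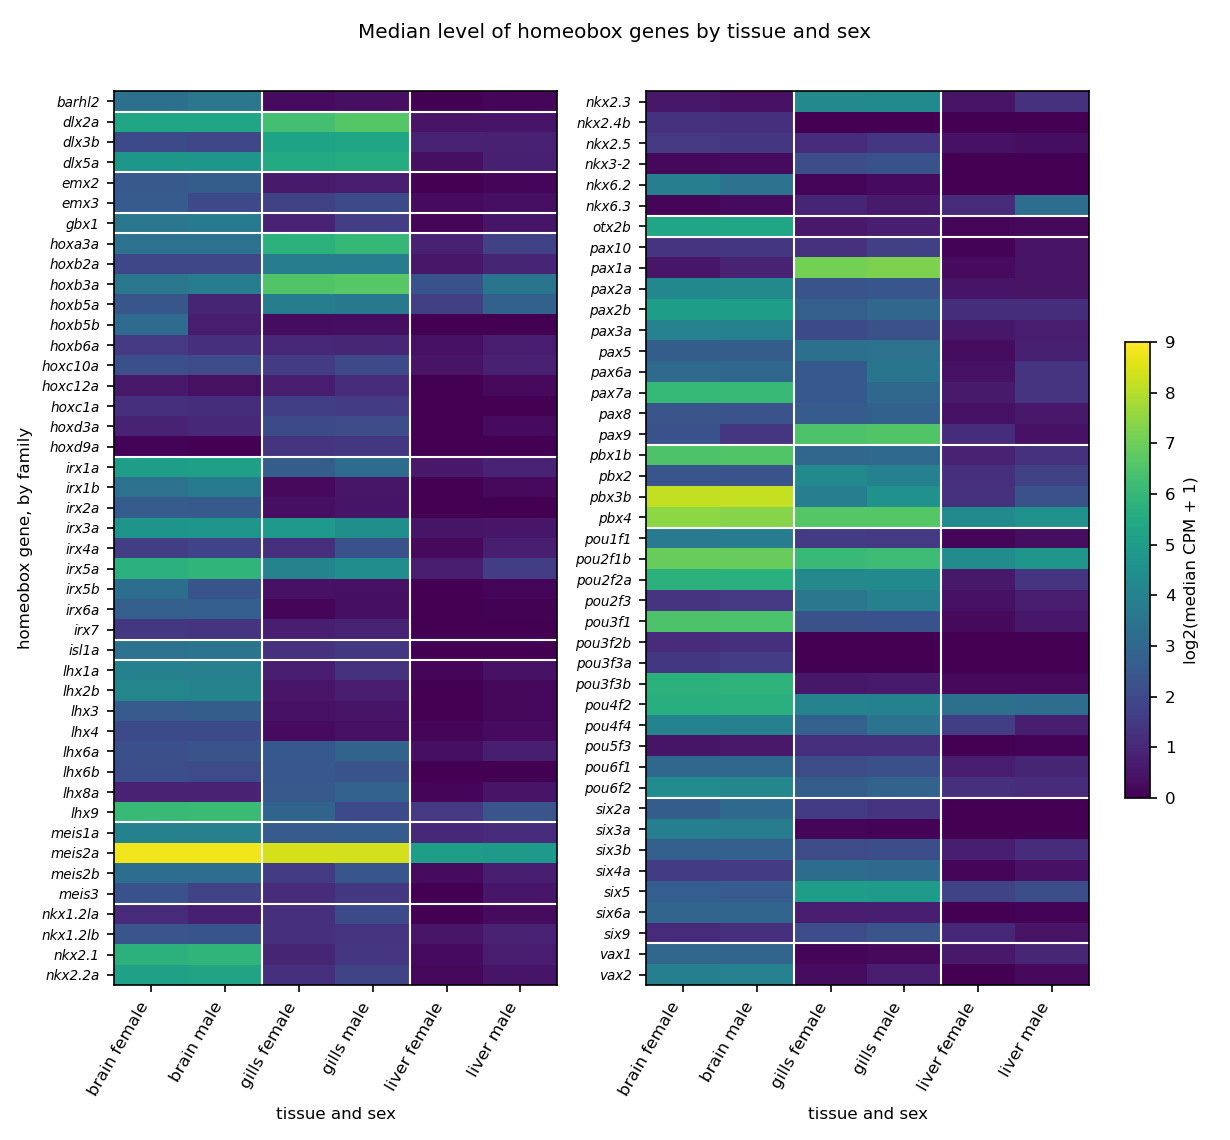
Colour gives the log2 of the median CPM plus 1 in each tissue and sex for 87 homeobox genes with a median of at least 1 CPM in any of the 6 groups. Rows are ordered by family, with white lines between families and tissues. The row of meis2a is brightest in brain and gills, pax1a and pax9 are bright in gills, and most rows are dark in liver.

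meis2a, a Hox cofactor gene, had the highest median of all 131 genes in each tissue. It ran from 243 to 621 CPM with a median of 446 CPM in brain, from 191 to 572 CPM with a median of 343 CPM in gills, and from 3.80 to 108 CPM with a median of 28.5 CPM in liver. The brain and gill ranges overlapped widely, and on library totals no liver reached the lowest gill library. With TMM-scaled sizes, gills from 155 CPM and livers up to 242 CPM overlapped. The cofactor gene pbx4 and pou2f1b, which encodes the widely made octamer-binding factor Oct1, were also among the 10 highest genes in every tissue. pbx4 had medians of 171 CPM in brain, 99.0 CPM in gills and 19.8 CPM in liver, and pou2f1b had 120, 69.6 and 21.3 CPM in the same tissues. The 10 highest in brain were completed by pbx3b (293 CPM), pbx1b (90.3 CPM), pou3f1 (88.7 CPM), lhx9 (67.6 CPM), pax7a (66.1 CPM), nkx2.1 (56.8 CPM) and pou3f3b (56.1 CPM). Those in gills were completed by pax1a (142 CPM), hoxb3a (97.1 CPM), pax9 (92.6 CPM), dlx2a (82.7 CPM), hoxa3a (59.3 CPM), dlx5a (46.1 CPM) and dlx3b (37.8 CPM). Those in liver were completed by pou4f2 (8.83 CPM), hoxb3a (6.44 CPM), hoxb5a (3.72 CPM), six5 (2.99 CPM), pbx3b (2.83 CPM), lhx9 (2.69 CPM) and nkx6.3 (2.44 CPM).

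Brain and gills were compared in a single edgeR quasi-likelihood fit over all 6 groups, in which 94 of the 131 genes passed the low-count filter, many of them through 1 tissue alone. At an adjusted p under 0.05, 56 genes were higher in brain and 29 in gills. Differences of that kind were the rule in this comparison: 85.6% of all 20039 tested genes passed, 42% higher in brain and 43.6% higher in gills. The median log2 fold change, brain over gills, was 1.05 over the 94 homeobox genes and -0.02 over all tested genes. All 4 Meis genes, both Isl genes, both Vax genes, 7 of 9 tested Irx genes and 11 of 13 tested Pou genes were called higher in brain. All 3 tested Dlx genes were called higher in gills. With all 3 tissues compared, 54 of the 94 genes were called higher in brain than in gills and liver both. Another 26 were called higher in gills than in both other tissues, and 13 had no single highest tissue. These patterns were not counted over all tested genes, so they cannot be read as particular to the homeobox genes.

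six3a, a factor of the anterior forebrain and eye, ran from 1.85 to 24.2 CPM in brain with a median of 13.3 CPM, against 0 to 1.14 CPM in gills with a median of 0.0688 CPM. No gill library reached the lowest brain library. Its difference of 6.82 log2 units (SE 0.20, edgeR adjusted p = 9.3e-88) was the largest toward brain among the 94 genes. pou3f3b, a neuronal POU factor gene, ran from 41.7 to 99.999 CPM in brain and from 0 to 2.85 CPM in gills, again without overlap, and its log2 fold change was 6.35 (SE 0.15, adjusted p = 1.9e-104). nkx2.1, known for its role in the hypothalamus, thyroid and ventral forebrain, varied more between brains, from 1.44 to 133 CPM with a median of 56.8 CPM, against 0.158 to 11.1 CPM with a median of 1.31 CPM in gills. Here the ranges overlapped at their ends, and the log2 fold change was 5.02 (SE 0.18, adjusted p = 1.9e-71). otx2b, the only listed Otx gene, had medians of 39.3 CPM in brain and 0.622 CPM in gills and a log2 fold change of 5.17 (SE 0.20). The optic and ventral forebrain genes vax1 and vax2 had log2 fold changes of 5.23 and 4.65. emx2, a gene of the dorsal forebrain, differed by 2.96, with medians of 5.07 CPM in brain and 0.570 CPM in gills. emx3 was closer, with medians of 4.57 and 2.64 CPM and a log2 fold change of 0.48 (SE 0.16).

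pax7a, lhx9, pax2a, nkx6.2, lhx1a, lhx2b, pou4f2 and isl1a were also called higher in brain, whereas lhx6a and lhx6b were called higher in gills (log2 fold changes of -0.58 and -0.43). pax7a, which marks the dorsal midbrain, had medians of 66.1 CPM in brain and 5.64 CPM in gills, and lhx9 had 67.6 and 3.81 CPM. pax2a, a gene of the midbrain-hindbrain boundary, differed by a log2 fold change of 1.98 (SE 0.15). nkx6.2, expressed by ventral neural progenitors and oligodendrocytes, had a log2 fold change of 5.89. The LIM genes lhx1a and lhx2b, of neurons and forebrain, had medians of 14.3 and 15.6 CPM in brain, against 0.893 and 0.530 CPM in gills. pou4f2, of a class known from retinal ganglion cells and sensory neurons, had medians of 51.6 CPM in brain and 14.7 CPM in gills. isl1a, a gene of motor and sensory neurons, differed by 2.58 log2 units. By contrast, pax6a had medians of 7.51 CPM in brain and 7.12 CPM in gills which differed by 0.14 log2 units (SE 0.20, edgeR adjusted p = 0.51), with libraries from 1.54 to 40.7 CPM in brain and from 0.296 to 38.9 CPM in gills. irx3a had medians of 24.8 and 24.3 CPM in brain and gills and did not pass the test either (log2 fold change 0.01, SE 0.10).

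pax1a, pax9, nkx2.3 and nkx3-2 were called higher in gills. pax1a, which in vertebrates acts in the pharyngeal endoderm and its pouches, ran from 0.0620 to 9.08 CPM in brain with a median of 0.708 CPM, against 63.8 to 305 CPM in gills with a median of 142 CPM, and the ranges did not overlap. The log2 fold change, brain over gills, was -7.62 (SE 0.15, edgeR adjusted p = 9.4e-119), the largest of the 94 genes in either direction. Its relative pax9 ran from 0.0915 to 10.17 CPM in brain and from 34.5 to 171 CPM in gills (log2 fold change -5.05, SE 0.13). nkx2.3, a gene of the pharyngeal endoderm, had medians of 0.399 CPM in brain and 18.1 CPM in gills and a log2 fold change of -4.72. nkx3-2, known for its part in the jaw joint and skeleton, differed by -3.85. The gills also held transcripts of muscle and cartilage markers (summed medians of 1780 CPM in females and 1926 CPM in males for 6 striated muscle genes, and 233 and 200 CPM for 8 cartilage and skeleton genes), whose part in these levels was not tested.

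Among the Dlx genes, known in the forebrain as well as in arch mesenchyme and skin, dlx2a and dlx5a were high in both tissues. dlx2a had medians of 38.6 CPM in brain and 82.7 CPM in gills, and dlx5a had 25.8 and 46.1 CPM. Both ranges overlapped between tissues, with log2 fold changes of -1.20 (SE 0.12) and -0.86 (SE 0.13). dlx3b, a gene of placodes and skin, differed most within the family, with medians of 3.02 CPM in brain and 37.8 CPM in gills and a log2 fold change of -3.57 (SE 0.13). six4a, six5 and pou2f3, the last needed for tuft cells, were higher in gills by log2 fold changes of -1.87, -2.54 and -2.36. pax8, a thyroid and kidney gene, and pax5 were higher in gills by less than 1 log2 unit (-0.57, SE 0.15, and -0.90, SE 0.15). lhx8a, which in mammals acts in jaw mesenchyme and cholinergic forebrain neurons, had medians of 0.819 CPM in brain and 5.60 CPM in gills (-2.61, SE 0.19). The 8 thyroid follicle genes summed to medians of 43.8 and 44.0 CPM in female and male brains, 190 and 139 CPM in female and male gills, and 92.5 and 35.5 CPM in female and male livers, and their part in these levels was not tested.

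Liver was called lower than both other tissues for 40 of the 94 tested genes, a count that was not made over all tested genes. Against liver, 71 of the 94 tested genes were called higher in brain and 11 in liver, where 47.1% and 39.3% of all tested genes passed (86.4% in either direction). In the comparison of gills with liver, 56 were called higher in gills and 10 in liver, where 45.2% and 36.6% of all genes passed (81.9% in either direction). Calls toward liver depended on scaling: the median TMM factor was 1.502 in brain and 1.503 in gills, against 0.427 in liver. With library totals in place of TMM, 92 were higher in brain and 2 in liver, and 90 were higher in gills and 2 in liver. Of all 20039 tested genes, 16249 were then higher in brain and 2449 in liver, and 17068 were higher in gills and 1797 in liver. All genes together shifted by a median log2 value of 1.74 and 1.72. Of the 94 genes, 1 was called higher in liver than in brain and gills both, nkx6.3. This gene, known in other vertebrates from stomach, pancreas and hindbrain, ran from 0 to 1.67 CPM in brain and from 0 to 3.42 CPM in gills, against 0 to 74.8 CPM in liver with a median of 2.44 CPM, so that the ranges overlapped at their low end. Its log2 fold change, brain over liver, was -6.49 (SE 0.30) with TMM and -4.71 with library totals, and gills over liver it was -4.76 (SE 0.28) and -2.97. Both contrasts average the sexes, which differed in liver. In CPM, nkx6.3 averaged 1.15 ± 0.769 in female and 0.713 ± 0.684 in male gills, and 3.92 ± 11.3 and 13.1 ± 14.9 in female and male livers (SD). Without female livers 17 and 23, the 2 highest females, the female liver median was 1.05 CPM. vax1 was called higher in liver than in gills by both scalings (-4.04 and -2.26), with medians of 0.116 CPM in gills and 0.789 CPM in liver.

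Hox genes differed between the tissues by paralog group. Group 3 held the most transcript. Its 3 genes, known for expression in the third arch and its derivatives, summed to 1.42 to 73.4 CPM in brain with a median of 22.6 CPM, 92.6 to 371 CPM in gills with a median of 172 CPM, and 0.325 to 43.4 CPM in liver with a median of 7.27 CPM. On library totals, no brain or liver reached the lowest gill library. Group 3 was mostly hoxb3a and hoxa3a, with log2 fold changes, brain over gills, of -2.88 (SE 0.19) and -2.73 (SE 0.15, edgeR adjusted p = 1.9e-43). hoxd3a had medians of 0.941 CPM in brain and 3.10 CPM in gills. Group 2, represented by hoxa2b and hoxb2a, had medians of 3.34 CPM in brain, 13.9 CPM in gills and 0.830 CPM in liver. Group 5, through hoxb5a and hoxb5b, had medians of 1.31, 12.7 and 3.82 CPM. hoxa3a, hoxb3a, hoxd3a, hoxb5a and hoxb5b each overlapped another annotated gene, and the part of overlap in their levels was not tested. Of the posterior groups, hoxd9a had medians of 0.0676 CPM in brain and 1.64 CPM in gills and a log2 fold change of -4.24 (SE 0.22), whereas hoxc10a was at 3.34 and 2.28 CPM. Groups 11 to 13 had summed medians of at most 0.910 CPM in any tissue.

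**Figure D2:**
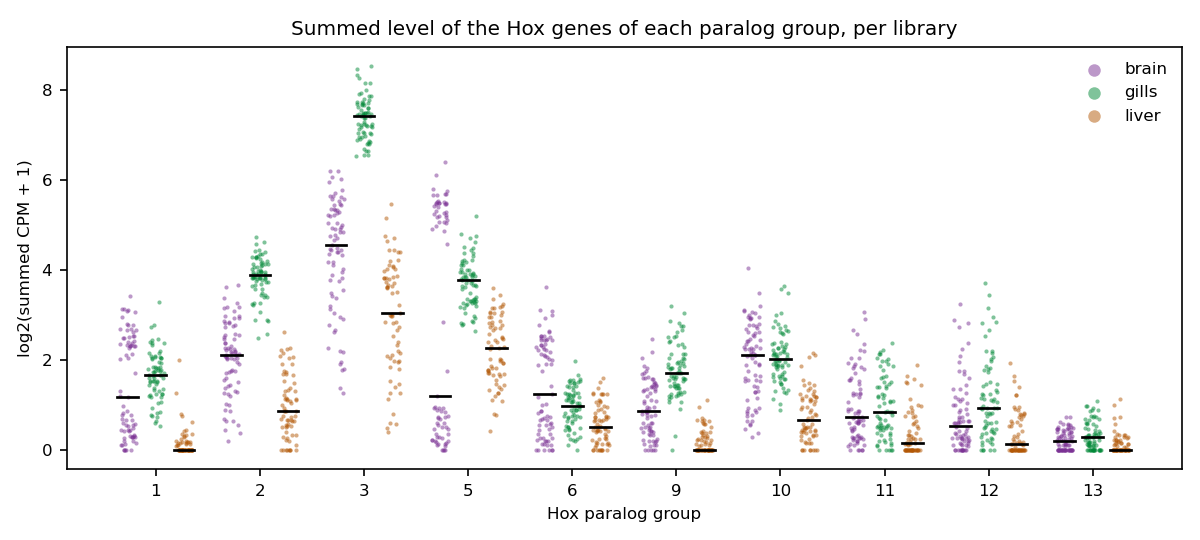
Each point is a library, placed by the log2 of the summed CPM plus 1 of the Hox genes of a paralog group, with brain, gills and liver side by side and a black line at the median. Groups 4 and 8, at 0 in all libraries, are left out. Gills lie above brain and liver in group 3, and brain libraries of group 5 fall into 2 separate clouds.

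The brains fell into 2 separate sets by hoxb5b, a pattern seen in the values and not tested. The 36 brains of the upper set, from 19 females and 17 males, ran from 14.9 to 49.5 CPM with a median of 25.5 CPM. The 41 of the lower set, from 19 females and 22 males, ran from 0 to 3.13 CPM with a median of 0.168 CPM. No brain lay between them. The paralog hoxb5a followed the same division without overlap, at 8.11 to 34.4 CPM in the upper set and 0 to 3.03 CPM in the lower. hoxc1a did so as well, at 2.095 to 8.46 CPM and 0 to 1.303 CPM. hoxb3a and hoxb6a overlapped between the sets, with medians of 25.5 and 3.196 CPM for hoxb3a and of 4.08 and 0.376 CPM for hoxb6a. hoxb2a (medians 3.39 and 2.04 CPM) and hoxa2b (0.446 and 0.405 CPM) lay closer together. Ranges also overlapped for hoxa3a (medians 10.0 and 5.41 CPM), hoxd3a (2.08 and 0.521 CPM), hoxb9a (1.02 and 0.145 CPM) and hoxc10a (5.01 and 1.64 CPM). The highest hoxc10a value was in the lower set, at 15.5 CPM, against 9.29 CPM in the upper.

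Some markers of caudal hindbrain and spinal cord had other medians in the upper set than in the lower, and all of their ranges overlapped. slc18a3a, a vesicular acetylcholine transporter gene, ran from 16.3 to 41.8 CPM in the upper set and from 4.63 to 22.2 CPM in the lower. The motor neuron homeobox gene mnx1 had medians of 0.973 and 0.205 CPM. urp1, in zebrafish a urotensin-related peptide gene of spinal neurons that contact the cerebrospinal fluid, had medians of 7.30 and 0.920 CPM. It was not in the fixed list of hindbrain and spinal cord genes and was added separately. phox2bb, a marker of visceral motor and noradrenergic neurons of the hindbrain, had medians of 37.7 and 38.0 CPM. Medians were 4.28 and 1.73 CPM for phox2a, 4.36 and 2.82 CPM for egr2b and 2.63 and 1.98 CPM for chata, and were lower in the upper set for evx1 (0.303 and 0.491 CPM) and evx2 (2.95 and 3.12 CPM). In the gills of the same fish, hoxb5a ran from 5.27 to 23.3 CPM for the upper set and from 5.91 to 26.5 CPM for the lower, and in their livers the ranges overlapped as well. The part of caudal tissue in these levels was not tested. The higher level of hoxb5b in brain than in gills (log2 fold change 4.81, SE 0.39) rested on the upper set, since the median over all 77 brains was 0.814 CPM and that over the 72 gills 0.242 CPM.

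**Figure D3:**
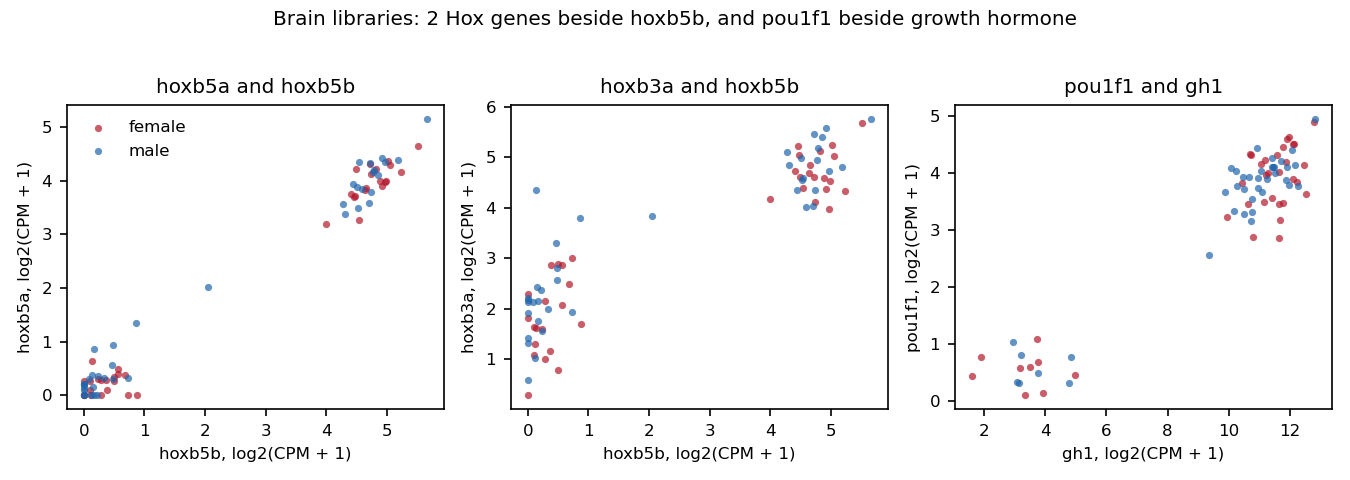
Each point is a brain library, female or male by colour, on axes of log2(CPM + 1). hoxb5a and hoxb5b separate the libraries into the same 2 clouds, hoxb3a overlaps between them, and pou1f1 separates with gh1.

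A second division of the brains concerned pituitary factors. pou1f1, which drives growth hormone, prolactin and thyrotropin cells, ran from 4.94 to 29.8 CPM in 61 brains and from 0.0765 to 1.14 CPM in the other 16, of which 9 were female and 7 male. The division was made on gh1, the growth hormone gene, at 654 to 7166 CPM and 2.04 to 30.5 CPM, and the pou1f1 ranges did not overlap. The pituitary hormone genes prl, smtla, tshba and cga were also without overlap. lhx3, a factor of all pituitary cell lineages, had medians of 5.87 and 1.05 CPM in the 61 and 16 brains, six2a had 7.40 and 1.37 CPM, and lhx4 had 3.42 and 1.84 CPM, each with overlapping ranges. isl1a, active in pituitary and in many neurons, had medians of 10.0168 and 8.76 CPM. This division ran across the one by hoxb5b: 29 brains were in both upper sets, 9 in both lower sets, and 7 and 32 in one but not the other.

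In brain, 4 of the 81 homeobox genes tested differed between females and males, where 7.22% of all 18392 tested genes did. They were 2 higher in females, against 4.64% of all genes, and 2 higher in males, against 2.58%. irx5b, an Iroquois gene and the only listed homeobox gene placed on the X chromosome, ran from 2.44 to 14.5 CPM in females with a median of 8.44 CPM, against 1.54 to 8.50 CPM in males with a median of 4.01 CPM. The ranges overlapped, and 37 of 38 females lay above the male median. Females exceeded males by 1.01 log2 units (SE 0.11, edgeR adjusted p = 1.7e-12). Over the 702 X-linked genes tested in brain the median was 0.96 with quartiles of 0.84 and 1.28, so irx5b lay within the range common on that chromosome. The highest male value, 8.50 CPM, belonged to male brain 12, the library with low Y-linked counts. Without it males ran to 7.56 CPM and the difference was 1.05 log2 units.

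pax9 was the largest sex difference of the chosen genes in brain and is autosomal. It ran from 0.844 to 10.17 CPM in females with a median of 3.86 CPM, against 0.0915 to 4.62 CPM in males with a median of 1.69 CPM. The ranges overlapped, with 36 of 38 females above the male median and 1 of 39 males above the female median. The female excess was 1.35 log2 units (SE 0.18, edgeR adjusted p = 8.8e-10) and 1.301 without the highest library. Markers of gill epithelium in the same brains summed to medians of 255 CPM in females (193 to 361) and 317 CPM in males (216 to 407) over 6 genes, and pax1a averaged 0.518 ± 0.329 CPM in the 38 females and 1.13 ± 1.39 CPM in the 39 males (SD), with 1 male at 9.08 CPM. Both ranges overlapped between the sexes, and their part in the pax9 difference was not tested. The other 2 calls were small and toward males. nkx2.2a, known from ventral neural tube and oligodendrocyte precursors, averaged 33.1 ± 4.76 CPM in females and 39.7 ± 9.91 CPM in males (log2 fold change -0.27, SE 0.07, adjusted p = 0.0032). irx1b averaged 10.19 ± 3.25 CPM in females and 12.6 ± 3.90 CPM in males (-0.31, SE 0.09, adjusted p = 0.022), and was not called when X and Y genes were left out. hoxb5b and pou1f1, which divided the brains above, did not pass the test (log2 fold changes of 0.16, SE 0.57, and -0.03, SE 0.32).

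**Figure D4:**
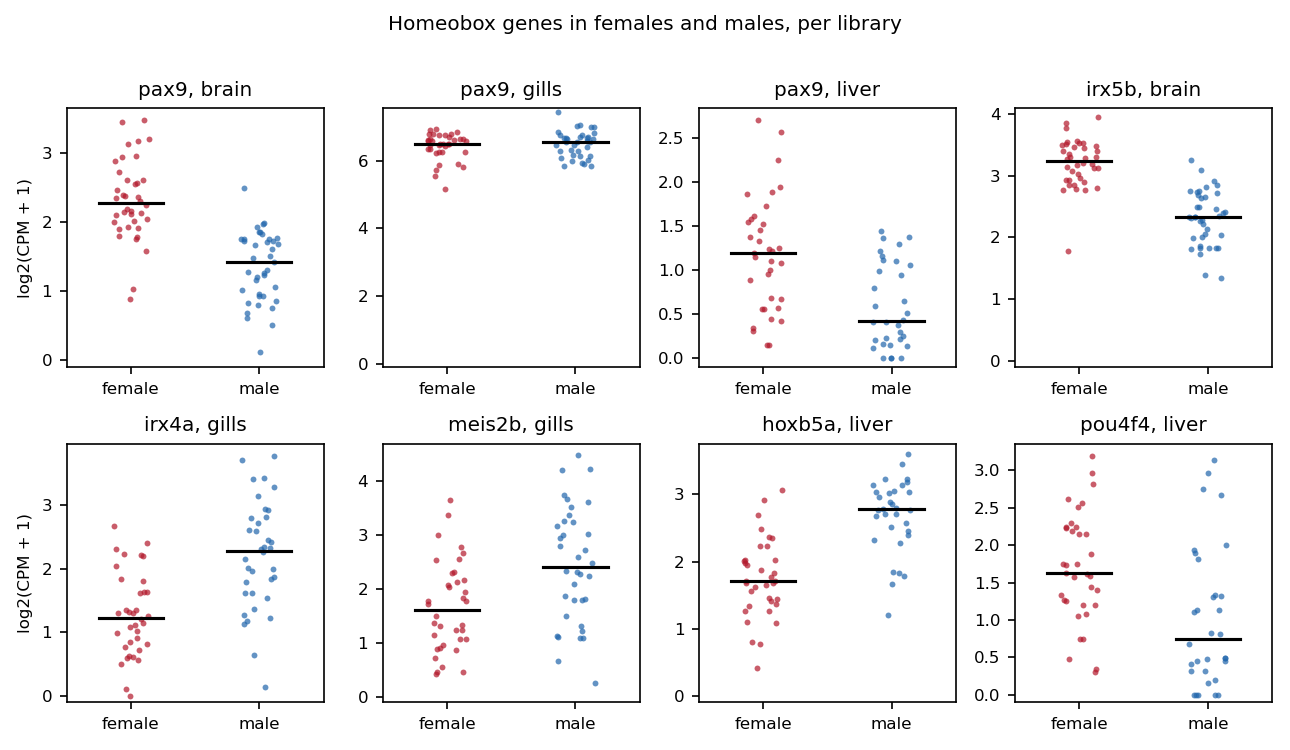
Each point is a library, placed by log2(CPM + 1), with females left and males right and a black line at the median, for 8 pairs of gene and tissue. pax9 is higher in females in brain and liver but not in gills, irx5b is higher in female brains, irx4a and meis2b are higher in male gills, and in liver hoxb5a is higher in males and pou4f4 in females.

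In gills, 9 of the 68 homeobox genes tested differed, all higher in males, where 13.5% of all 17654 tested genes differed, 6.02% higher in females and 7.45% higher in males. irx4a, known from heart ventricle and nervous system, ran from 0 to 5.34 CPM in females with a median of 1.35 CPM, against 0.104 to 12.6 CPM in males with a median of 3.86 CPM. The ranges overlapped, and 3 of 36 females lay above the male median. Female over male, it differed by -1.37 log2 units (SE 0.26, edgeR adjusted p = 2.4e-05). meis2b, the less abundant paralog of meis2a, ran from 0.340 to 11.5 CPM in females with a median of 2.06 CPM, against 0.190 to 21.1 CPM in males with a median of 4.30 CPM (log2 fold change -1.09, SE 0.28, adjusted p = 0.0037). pax6a, the eye and neuroendocrine factor gene, had medians of 4.56 CPM in females and 10.3 CPM in males (-0.99, SE 0.27). pbx3b had means of 18.9 ± 14.0 CPM and 32.4 ± 20.9 CPM in females and males (-0.77, SE 0.22). irx5a, lhx6a, gbx1, nkx2.2a and lhx8a had log2 fold changes of -0.50, -0.50, -0.96, -0.79 and -0.49. The pharyngeal genes did not pass: pax9 averaged 87.6 ± 21.0 CPM in females and 92.6 ± 25.5 CPM in males (log2 fold change -0.04, SE 0.08), and pax1a 149 ± 43.4 CPM and 151 ± 51.5 CPM (0.02, SE 0.10).

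Nerve marker sums and the share of reads in no gene were somewhat higher on average in male gills, with overlapping ranges. The sum of 13 neuron and glia genes had a median of 100.012 CPM in female gills (50.9 to 221) and 114 CPM in male gills (68.9 to 475), with olig2 at a median of 0 in both sexes. The sum of 8 hindbrain and spinal cord genes had medians of 44.8 CPM in females (22.6 to 78.7) and 59.8 CPM in males (30.3 to 124). Other marker sums also had higher medians in male gills: hepatocyte (43.9 CPM in females and 83.9 CPM in males), gonad, pineal and retina, pituitary and heart. The same held for the B cell, T cell and striated muscle sums. Medians were lower in males for thyroid follicle (190 and 139 CPM in females and males), blood, cartilage and skeleton, gill epithelium and pancreas. The part of these sums in the calls was not tested. The share of reads that fell in no gene was 10.8% ± 0.682 in female gills and 11.2% ± 0.563 in male gills (SD, n = 36 each). With that share as a covariate, an alternative chosen after seeing the data, 2 of the 9 genes were called, irx4a and meis2b. Over all 17654 tested genes, 1600 were called with it. gbx1 missed the threshold without male gills 36 (edgeR adjusted p = 0.061), and lhx8a and nkx2.2a did so without male gills 22 (0.077 and 0.063). Without male gills 11, which had low Y-linked counts, lhx8a had a log2 fold change of -0.45 (adjusted p = 0.071).

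In liver, 7 of the 28 homeobox genes tested differed, against 39.2% of all 13447 tested genes, with 3 higher in females (16.1% of all genes) and 4 higher in males (23.1%). pax9 was again higher in females. It ran from 0.108 to 5.51 CPM in females with a median of 1.28 CPM, against 0 to 1.73 CPM in males with a median of 0.343 CPM, and the ranges overlapped. It differed by 1.76 log2 units (SE 0.31, edgeR adjusted p = 2.7e-06), and 30 of 35 females lay above the male median. pou4f4, of a POU class known from sensory neurons, had medians of 2.096 CPM in females and 0.680 CPM in males (1.29, SE 0.35, adjusted p = 0.0020). meis2a had medians of 31.6 CPM in females and 27.6 CPM in males (0.57, SE 0.20, adjusted p = 0.020). These last 2 calls were lost when library totals replaced TMM, which moved the median of all genes by -0.38 in log2 value.

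The other 4 liver calls were toward males. hoxb5a ran from 0.337 to 7.40 CPM in females with a median of 2.27 CPM, against 1.31 to 11.1 CPM in males with a median of 5.88 CPM. The ranges overlapped, with 2 of 35 females above the male median, and it differed by -0.76 log2 units (SE 0.15, edgeR adjusted p = 4.8e-05). Without female livers 17 and 23 and male livers 32 and 35, 1 of 33 females lay above the male median and the difference was -0.82. hoxb3a had medians of 3.78 CPM in females and 10.1 CPM in males (-0.72, SE 0.23), and was not called with the share of reads in no gene as a covariate. nkx2.3, known in other vertebrates from gut and spleen mesoderm, had medians of 0.403 CPM in females and 1.45 CPM in males (-1.12, SE 0.29).

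nkx6.3 varied widely between livers. It ran from 0 to 61.2 CPM in females with a median of 1.15 CPM, against 0.934 to 74.8 CPM in males with a median of 8.63 CPM. In the test it differed by -1.47 log2 units (SE 0.46, edgeR adjusted p = 0.0086). The 2 highest females were livers 17 and 23, at 31.9 and 61.2 CPM, which had low vtg3. Female liver 21, with 167 CPM of vtg3, was at 1.45 CPM. Male livers 32 and 35, with high vtg3, were at 1.29 and 1.34 CPM. Without female livers 17 and 23 and male livers 32 and 35, females ran from 0 to 5.49 CPM with a median of 1.05 CPM. Males then ran from 0.934 to 74.8 CPM with a median of 9.49 CPM, and the difference was -2.95 log2 units. Livers 17 and 23 were set apart by vtg3 in these same data, and their Y-linked sums lay within the female range. Leaving out the 2 highest females widens the difference by itself, so this value is no separate support for it. Pancreas markers, 8 genes, summed to medians of 99.3 CPM in females (3.48 to 1400) and 147 CPM in males (2.39 to 2625), with ins and gcgb at medians of 0 in both sexes, and their part in the nkx6.3 levels was not tested.

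**Figure D5:**
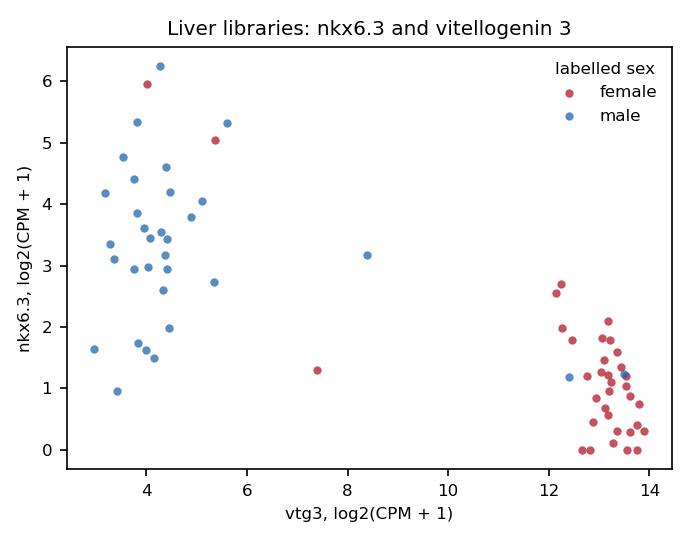
Each point is a liver library, placed by log2(CPM + 1) of the yolk precursor gene vtg3 and of nkx6.3, coloured by labelled sex. Most males lie at the left with varied nkx6.3 and most females at the right with nkx6.3 of at most 5.49 CPM. The 2 females at the far left have 31.9 and 61.2 CPM of nkx6.3, female liver 21 with 167 CPM of vtg3 has 1.45 CPM, and the 2 males farthest right have 1.29 and 1.34 CPM.

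Interaction terms of the joint edgeR fit asked whether the sexes differed more in one tissue than in another. Between brain and gills, 2 of the 94 genes chosen by name were called, 1 positive and 1 negative, where 0.674% of all 20039 tested genes were, 0.409% positive and 0.264% negative. The female excess of pax9 was larger in brain than in gills by 1.38 in log2 value (SE 0.23, adjusted p = 8.6e-06). For pax1a the difference was -1.09 (SE 0.25, adjusted p = 0.0074), with 1 male brain at 9.08 CPM, and this call was lost with all libraries included. With the fish as a random block in limma-voom, 7 of the chosen genes were called, where 615 of all 20039 tested genes were. The 7 were pax9 and pax1a, together with emx3, irx1b, irx4a, meis2b and pbx3b. Between brain and liver 13 genes were called, 8 positive and 5 negative, where 28.9% of all genes were, 19% positive and 9.97% negative, and pax9 was not one of them (edgeR adjusted p = 0.33). Between gills and liver 10 were called, 6 positive and 4 negative, where 29.9% of all genes were, 20% positive and 9.86% negative. Here pax9 was at -1.75 (SE 0.26, edgeR adjusted p = 1.3e-08) and nkx6.3 at 2.17 (SE 0.51, edgeR adjusted p = 3.3e-04). Without the libraries that stood apart from their label's group, nkx6.3 was at 3.78, but these included its 2 highest female livers. six9 had -1.80 in brain and liver and -1.91 in gills and liver. Its means were 1.21 CPM in female and 1.32 CPM in male brains, 3.45 and 4.20 CPM in female and male gills, and 1.32 and 0.510 CPM in female and male livers. six9 did not pass the low-count filter of the liver sex test.

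For comparison, 89 homeobox genes of families outside the name rule were found in the tables. In brain 4 of 70 tested passed the sex test, 2 in each direction, where 7.22% of all genes did. In gills 11 of 56 passed (13.5% of all genes), all higher in males, among them the neuronal factor genes onecut3a, lmx1bb and tlx2. In liver 12 of 39 passed (39.2% of all genes), with hopx, lmx1a and phtf1 higher in females and 9 higher in males, among them the hepatocyte factor gene onecut1 and the pancreatic factor gene pdx1.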

How the data were processed

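Transcript-end libraries (QuantSeq FWD, Qiagen column RNA) were made from brain, gills and liver of 80 fish, per the labels' protocols. The authors deposited raw read counts for each gene as a separate table for each tissue, a column being 1 library. The submitters' processing notes name fastp, STAR and HTSeq. Versions, genome build and strand setting are not given in the sources used here, so reads of overlapping or antisense genes may be misassigned. The summary lines of reads in no gene (a median of 12.9% of counts in brain, 10.8% in gills and 7.24% in liver) were kept out of totals and tests. Libraries under 1000000 counts (1 female brain, 3 female and 7 male livers) were left out. The reason was that earlier results of these data showed them to hold transcripts of the other tissues.

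Sexes were compared within a tissue, and tissues and interactions in a joint fit, by edgeR 4.0.16 (R 4.3.3) with its quasi-likelihood test (TMM, filterByExpr, trended dispersion, robust fit), two-sided, with Benjamini-Hochberg adjustment over all tested genes and a threshold of 0.05. Fold changes are on the TMM scale while CPM uses library totals, so they can differ in sign where liver is involved. Within a tissue, replicates are separate fish. The joint fit had no term for the fish, so tissues of the same fish were treated as independent in the tissue and interaction tests. Intervals for zero counts cover counting error only. On simulated counts the gill test recovered 86.2% of genes changed by 1 log2 unit and the liver test 66.7%. Alternatives used DESeq2 1.42.0 and limma 3.58.1, library totals, other filters, blocks and library sets. Fish tags join the tissues of an animal: over 69 fish, brain and gill deviations from group means correlated with a median of 0.137 across 16262 genes, against -0.00431 over all pairs of fish. The members and lists were chosen with earlier results of these data known. Genes named with values were mainly those called between sexes, the 10 highest per tissue and the 10 largest tissue differences on each side. Called interactions, Hox genes by paralog group and a fixed list of regional markers were added. Not every such gene has its own values or all its statistics printed. A gene table of assembly fGasAcu3.hap1.1 matched 121 of the 131 genes and was used only for X and Y linkage and overlaps. The results of 1 member are not reported here, though counts over the members include it.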

Additional observations from a re-analysis of the deposited data

Results flagged for a closer look

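The sex difference of these genes differed between tissues by the interaction test of edgeR, and the values are differences of log2 fold changes, female over male, first tissue minus second. Between brain and gills, pax9 had 1.38 and pax1a -1.09.

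Between brain and liver, 8 genes had a positive value: nkx6.3 with 1.79, meis3 with 1.32, six4a with 1.17, dlx5a with 1.13, nkx2.3 with 1.06, irx4a with 1.05, emx3 with 1.05 and pou2f2a with 0.78. For nkx6.3 it was 3.44 without the libraries that stood apart from their label's group, which included its 2 highest female livers. The 5 with a negative value were six9 with -1.80, pou3f3a with -1.43, pou4f4 with -1.11, emx2 with -1.03 and meis2a with -0.53. In liver, pou3f3a was counted in 14 of 67 libraries and emx2 in 32, both with medians of 0 CPM. Neither passed the low-count filter of the liver sex test, and dlx5a, emx3, irx4a, meis3, six4a and six9 did not pass it either. meis3, six4a and emx3 had liver medians of 0.173, 0.165 and 0.246 CPM, under the level of 3 counts (0.277 CPM). Over all tested genes the median of this difference was 0.17.

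Between gills and liver, 6 genes had a positive value: nkx6.3 with 2.17, nkx3-2 with 1.34, six4a with 1.24, lhx9 with 1.05, nkx2.3 with 0.98 and dlx5a with 0.94. The 4 with a negative value were six9 with -1.91, pax9 with -1.75, pou4f4 with -1.61 and meis2a with -0.59, beside a median of 0.16 over all tested genes. nkx3-2 was counted in 23 of 67 livers, with a median of 0 CPM, and did not pass the low-count filter of the liver sex test. Nor did dlx5a, six4a and six9 pass that filter.

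The 10 liver libraries under 1000000 counts, left out above, held far more homeobox transcript than the other livers. Their summed level ran from 146 to 2035 CPM with a median of 1362 CPM, against 24.9 to 462 CPM with a median of 151 CPM in the 67 deeper livers. Libraries this shallow were left out because earlier results of these data showed them to hold transcripts of the other tissues. The part of such transcripts in these sums was not tested.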

How the results depend on the processing

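Sex differences of called genes kept their direction under every alternative run, and 172 of 199 values also kept their call. The count of called genes in brain was 2 with X and Y genes left out (4 otherwise reported, with 5 at an unadjusted p under 0.05). irx5b, being X-linked, was itself left out there, and irx1b lost its call. Over all genes, 274 of 17408 were called without X and Y genes. In gills it was 14 with the DESeq2 test (3111 of 22651 genes in all) and 2 with the share of reads in no gene as covariate (1600 of 17654). In liver it was 11 with the DESeq2 test (6418 of 22415 genes in all) and 14 without the low-count filter (6389 of 22415). The count of interactions between brain and gills was 7 with limma-voom and the fish as replicate block (615 of 20039 genes in all). It was 1 with all libraries (105 of 19925). The causes of these changes were not tested, except that fewer genes are tested without X and Y genes and more without the filter.

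The pairing of female and male libraries by replicate number was checked and is a number only. Same-numbered pairs had correlations of deviations between -0.351 and 0.497 (brain), -0.458 and 0.517 (gills) and -0.385 and 0.463 (liver), and 2 of 38, 2 of 36 and 0 of 29 correlated best with their own number. With the number as replicate block, 3 genes were called in brain, 3 in gills and 7 in liver. Over all genes these counts were 1247 of 18392, 1662 of 17654 and 4363 of 13447. With the fish as replicate block in edgeR, 86, 78 and 64 tissue differences were called, against 85, 82 and 66 without it. hoxc10a, hoxd9a, lhx8a and pbx2 were among those then not called between brain and liver. Over all 20039 tested genes, 17311, 17470 and 16445 were called with the fish as block.

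Of 565 tissue differences of named genes under an alternative, 21 changed sign, all in comparisons with liver. Brain over liver with DESeq2 size factors, the log2 fold change was 0.030 for lhx8a, 0.092 for pax1a and 0.28 for pax9. With library totals it was 1.07 for hoxb3a, 0.92 for hoxb5a, 0.65 for hoxd9a, 1.25 for lhx8a, 1.38 for pax1a, 1.52 for pax9, 1.05 for pbx2, 0.71 for six5 and 0.64 for six9. Gills over liver with library totals it was 1.69 for hoxb5a, 0.86 for hoxb6a, 1.12 for irx1b, 1.61 for lhx3, 1.15 for lhx9, 0.67 for nkx1.2lb, 1.202 for pou3f3b, 0.68 for pou4f2 and 0.68 for six3a. DESeq2 size factors moved the median of all genes by 0.47 in brain over liver, 0.29 in gills over liver and 0.19 in brain over gills. Depth limits what can be said of genes near the level of 3 counts in a library of median size, 0.246 CPM in brain, 0.268 CPM in gills and 0.277 CPM in liver.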
